A study of Mus musculus with 3 samples.

Results

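Lin28a and L1td1 are RNA-binding genes of stem cells, and their messenger RNAs were followed cytosine by cytosine through bisulfite sequencing. All rows of both genes were taken by RefSeq accession: NM_145833.1 for Lin28a and NM_001081202.1 for L1td1, 2 of the 13220 named genes in the data. Together they gave 1334 of the 4450412 cytosines listed in at least 1 library. The libraries came from mouse embryonic stem cells of J1 background carrying the genotype Tet1-/-,Tet2-/-,Tet3-/-, in 1 group of 3 samples, here replicates 1, 2 and 3. Cells were cultured on fibroblast feeders with leukemia inhibitory factor, feeders were depleted by plating, and polyadenylated RNA was selected, fragmented, converted and sequenced as paired ends. Every sample lacks the 3 Tet genes and no other genotype was analysed here, so nothing below is a comparison of genotypes. The sources used here do not say whether the line is 1 clone or the samples are separate cultures. P-values of single cytosines therefore set reads against a background, and the spread between samples may be technical.

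Lin28a joins a cold shock domain to zinc knuckles of the CCHC type. It binds the precursors of the let-7 microRNAs and, with uridylating enzymes, blocks their maturation in stem cells; let-7 in turn represses Lin28a mRNA. L1td1 is a mammalian gene derived from the first open reading frame of the LINE-1 retrotransposon, is known from pluripotent cells, and its protein was found in complexes with LIN28 in human embryonic stem cells. In bisulfite-treated RNA an unmodified cytosine is read as thymine, whereas 5-methylcytosine, 5-hydroxymethylcytosine and a cytosine that escaped the reagent all stay cytosine. The unconverted share is the percentage of reads at a cytosine that still show cytosine, and cannot tell these apart.

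The cytosine patterns of the 6 sites on which the results turn are shown first, since the deposited tables list each cytosine by position. Each line runs 5′ to 3′ over 30 nt. The capital is the site, each lower-case c is another listed cytosine, and n is a position with no listed cytosine. Positions count from the transcript start.
Lin28a 156: nnnnncnccnccnnnCncnncccnnncnnc
Lin28a 1176: nnnncnnnnnnnnnnCncnnncnncnnnnn
Lin28a 3306: nnnccccccncccccCnnnncnnnnnnnnc
L1td1 285: nnnnnnnncnnncnnCnnncnnnnnnnnnn
L1td1 1476: nnnncnnnnnnncnnCnncccnnncnnnnn
L1td1 2662: nnnnnnnnnnnncnnCnnncnnnnnnnccc
The Lin28a site at 3306 closes a stretch that is nearly all cytosine. The maps hold 12, 5 and 14 listed cytosines for the Lin28a sites and 4, 7 and 6 for those of L1td1, in the order printed.

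Letters were at hand only for the first 50 nt of each transcript, from RefSeq (build GRCm38.p6), and served to check the numbering. All 20 cytosines listed for Lin28a within these 50 nt fell on a C of the RefSeq letters, and so did all 19 of L1td1. Shifted by 1 position in either direction, only 9 and 7 did. The stretch from position 21 to 50 is given below, in capitals where a cytosine was listed. It lies at chr4:134018767-134018796 on the minus strand for Lin28a and at chr4:98726774-98726803 on the plus strand for L1td1.
Lin28a 21 to 50: tggggCCagCagCCgCCCgaCCtggggCCC
L1td1 21 to 50: CggtCagaCgCCCagCCCtgCttttgtCag
Over these printed letters coverage summed over the libraries stayed between 29 and 47 reads in Lin28a, while in L1td1 it climbed from 434 to 3874 reads.

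The libraries summed to a coverage of 139884444 to 151362866 reads over cytosines, with a library-wide unconverted share of 1.41% to 1.53%, which served as the background. Markers of embryonic stem cells took 5660 to 5921 coverage counts per 1000000 of the library, those of fibroblasts 360 to 574 and those of early differentiation 243 to 254. Among the stem cell markers Nanog had 0.701 to 1.88 on this scale and Esrrb 0.122 to 0.377, neither with a cytosine read deeply enough to be tested. These sums also depend on the number of listed cytosines. Nanog listed a mean of 21.3 per library and Esrrb 11, at 8.82 and 3.13 reads each. Of the 12 fibroblast markers, 9 were listed, while Pdgfrb, Postn and Dcn had no listed cytosine. Of the 12 early differentiation markers, 7 were listed, while Eomes, Sox17, Foxa2, Fgf5 and Afp had no listed cytosine. Most of the early differentiation counts came from Nes, with 192 to 215, and Sox1, with 37.7 to 47.0.

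Cytosines of both transcripts were listed from near the transcript start onward, with gaps and thinly read stretches in Lin28a. Lin28a listed 764 cytosines between positions 7 and 3390, of which 728 were listed in every library, and L1td1 listed 570 between positions 3 and 2917, of which 567 were. A cytosine was testable when at least 10 reads covered it in each of the 3 libraries. This held for 528 cytosines of Lin28a (69.1%) and 556 of L1td1 (97.5%). The 236 untestable cytosines of Lin28a and the 14 of L1td1 are described by their reads only.

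L1td1 was the more deeply read. Its mean coverage per listed cytosine was 264, 267 and 250 reads in replicates 1, 2 and 3, a mean of 260 ± 8.93 (SD, n = 3). For Lin28a the values were 61.6, 42.0 and 49.1 reads, a mean of 50.9 ± 9.91 (SD, n = 3). The values of the 2 genes did not overlap, and in replicates 1, 2 and 3 L1td1 stood 4.28, 6.36 and 5.10 times above Lin28a. Among 8780 genes with at least 50 listed cytosines in each library, whose median was 14.9 reads per cytosine, L1td1 ranked at the 97.7th percentile and Lin28a at the 85.8th. Coverage of cytosines is a rough guide to the amount of an mRNA.

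Per 1000000 coverage counts of the library, L1td1 took 990, 1066 and 1018, a narrow range. Lin28a took 301, 222 and 263, highest in replicate 1 and lowest in replicate 2. Trim71, a stem cell ubiquitin ligase and let-7 target named here after its values were seen, had the same order with 956, 626 and 741. This order was not shared by all deeply read genes of the let-7 target list used below. Igf2bp1, with 1001, 763 and 851, and Ccnd1, with 417, 395 and 396, had it. Imp3, with 414, 462 and 452, and Cdc34, with 520, 525 and 519, did not. The symbol Imp3 is also an alias of the let-7 target Igf2bp3, as set out below. Among thinly read genes of the list, Nr6a1 had the order, with 5.93, 3.55 and 4.15. Hmga2, with 37.7, 36.2 and 37.8, did not. Like Lin28a, the fibroblast collagen gene Col1a1 was highest in replicate 1, with 169, 123 and 102. The part of the fibroblast markers, which ranged from 360 to 574 in sum, in the Lin28a values was not tested. In RNA from many cells, fewer cells that carry a transcript and less of it per cell cannot be told apart.

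The reads were spread unevenly along each mRNA and in the same way in each library. In L1td1 the first 250 nt held 37.6% of all its coverage, at 763 reads per cytosine and library, and the deepest cytosine, at position 68, had 1852, 1993 and 1875 reads. The lowest stretch of L1td1 lay at positions 1251 to 1500, at 66.7 reads per cytosine. In Lin28a the deepest cytosine lay at position 1858, with 823, 644 and 739 reads, within a stretch from 1751 to 2000 that averaged 184 reads per cytosine. Between 2501 and 2750 its coverage was 5.41 reads per cytosine, with a cytosine not listed in a library taken as 0, and the longest gap without a listed cytosine ran from 1374 to 1456. Across positions, log2 coverage of library pairs had a Pearson's r of 0.951 to 0.964 in Lin28a (728 cytosines) and 0.981 to 0.985 in L1td1 (567 cytosines); neighbouring cytosines share reads, so the points are not independent.

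**Figure D1:**
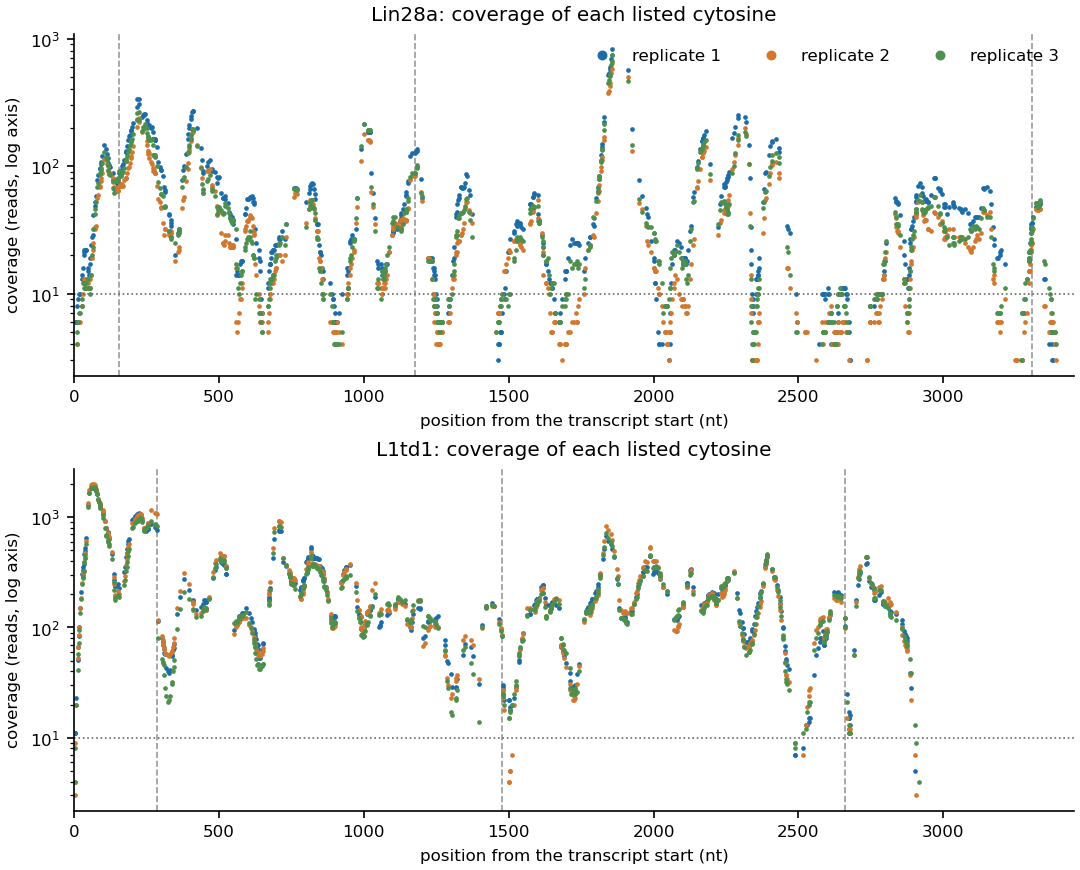
Coverage of each listed cytosine (log axis, reads) against its position from the transcript start in Lin28a (top) and L1td1 (bottom), 1 point per cytosine and library. Dashed lines mark the 6 called sites and the dotted line the minimum of 10 reads; the 3 libraries rise and fall together, L1td1 peaks at position 68 and Lin28a at position 1858.

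Nearly every cytosine of both mRNAs was converted. Over all reads, Lin28a had an unconverted share of 1.51%, 1.46% and 1.58% in replicates 1, 2 and 3, a mean of 1.52% ± 0.0613 (SD, n = 3). L1td1 had 1.51%, 1.46% and 1.40%, a mean of 1.46% ± 0.0513. All other genes combined gave 1.46% ± 0.0643. Lin28a lay below the other genes in replicate 1, by a difference of -0.0193 percentage points, and above them in replicates 2 and 3, by 0.0112 and 0.179. The mean difference of 0.0571 ± 0.107 was smaller than its own spread (two-sided exact sign-flip permutation test, p = 0.75). L1td1 differed by -0.0251, 0.00371 and -0.000609 percentage points, a mean of -0.00732 ± 0.0155 (p = 0.75, same exact test).

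Lin28a was higher than L1td1 in 3 of 3 libraries, by 0.00574, 0.00752 and 0.180 percentage points. The mean of 0.0644 ± 0.100 rested on replicate 3, and without it was 0.00663. The exact sign-flip permutation test gave p = 0.25, the smallest that 3 libraries allow. Among the 8780 ranked genes the share of Lin28a stood at the 66.5th percentile and that of L1td1 at the 50th.

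In stretches of 250 nt Lin28a ran from 1.04% ± 0.0972 at positions 2001 to 2250 up to 2.58% ± 0.244 at 2501 to 2750, the thinly read stretch named above (SD, n = 3). L1td1 ran from 1.24% ± 0.283 at 1501 to 1750 up to 2.34% ± 0.0740 at 251 to 500. That last stretch holds the site at 285. Of the testable cytosines, 113 in Lin28a and 25 in L1td1 had no unconverted read in any library. The deepest of them were position 989 of Lin28a, with 0 of 389 reads, which allows a share of up to 0.771%, and position 1055 of L1td1, with 0 of 372 reads, which allows 0.806% (3 counts of the total). These limits and all intervals here cover counting error only.

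Single cytosines were then tested against the background. For every library, a one-sided exact binomial test asked whether a cytosine kept more unconverted reads than the library-wide share predicts. Fisher's method joined the p-values of the 3 libraries, and the Benjamini-Hochberg adjustment ran across the 1639820 testable cytosines of all genes. The test treats reads as independent and takes no account of spread between samples. Candidates were cytosines with a mean share of 10% or higher, an adjusted p under 0.05 and no library at or under its background. Lin28a had 1 candidate among its 528 testable cytosines (0.189%), against 0.0473% of all testable cytosines. L1td1 had 0 among 556, by the exact binomial and by a beta-binomial test, although 39 of its cytosines (7.01%) had an unadjusted p below 0.05. In Lin28a 28 did (5.3%), and of all testable cytosines 3.32%. Of all testable genes, 6.66% held a candidate.

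At a pooled share of at least 5%, taken over the reads of the 3 libraries together, 15 testable cytosines of Lin28a and 7 of L1td1 were found. Only 3 in each gene were called, that is, had an adjusted p below 0.05 and lay above the background in each library. These are 0.568% of the testable cytosines of Lin28a and 0.54% of those of L1td1, against 0.203% of all testable cytosines. A site of this kind was found in 20.4% of the testable genes. At any level, 5 cytosines of Lin28a (0.947%) and 10 of L1td1 (1.8%) had such a p, against 0.469% overall. Depth differs between genes and sets how small a share can be called, so these percentages are not compared further. The cytosines nearest the 5% line were position 1551 of Lin28a at 5% and position 1979 at 4.90%, and in L1td1 position 2674 at 5% and position 1574 at 4.27%.

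**Figure D2:**
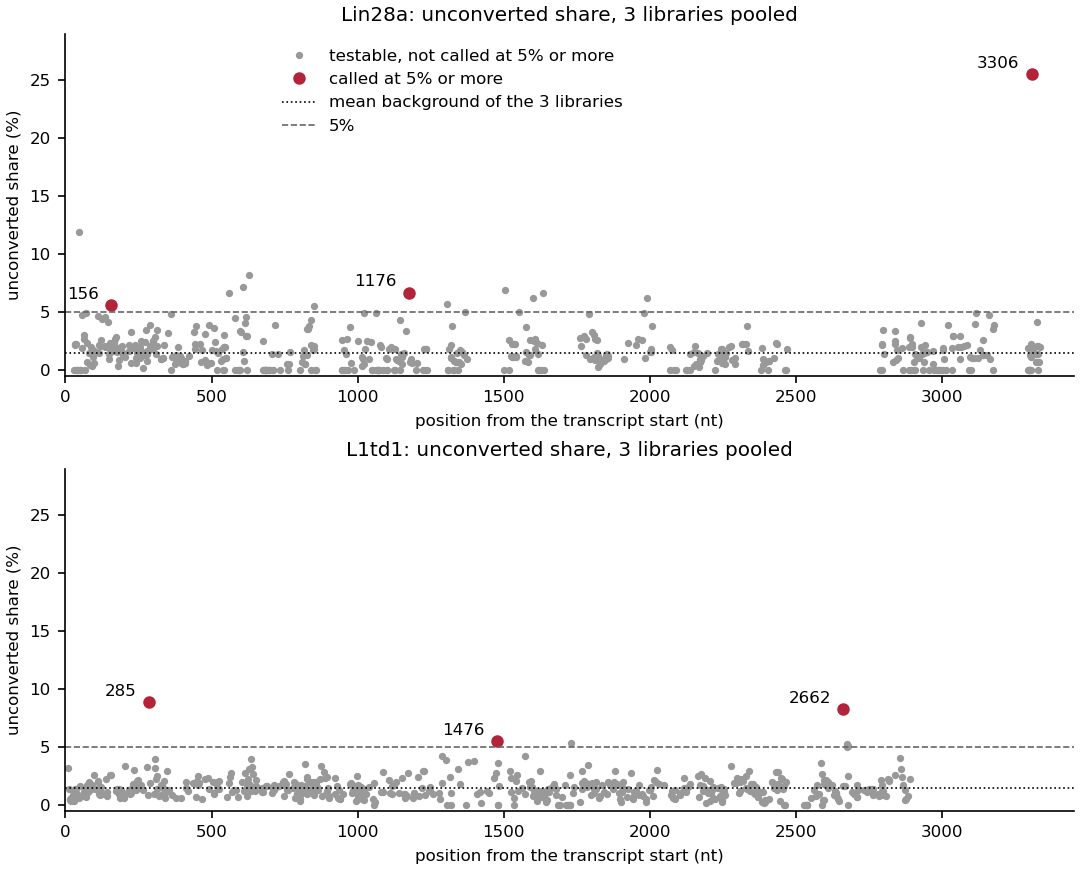
Unconverted share of each testable cytosine, pooled over 3 libraries (%), against its position from the transcript start in Lin28a (top) and L1td1 (bottom); red points are the sites called at 5% or more, the dotted line is the mean background and the dashed line 5%. Position 3306 of Lin28a, at 25.5%, stands apart from all other cytosines of both genes.

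The strongest site of either gene was position 3306 of Lin28a, the last cytosine before position 3311 and 84 nt short of the last listed one. It was unconverted in 10 of 36 reads in replicate 1, 7 of 25 in replicate 2 and 7 of 33 in replicate 3. These are shares of 27.8%, 28.0% and 21.2%, a mean of 25.7% ± 3.86 (SD, n = 3), or 25.5% of 94 reads (exact 95% interval 17.1% to 35.6%). Every library lay above its background (adjusted p = 1.01e-17 and highest p of a single library 3.36e-07, exact binomial test). The intervals of single libraries are wide, from 14.2% to 45.2% in replicate 1, because each rests on 25 to 36 reads. This is near the median coverage of the Lin28a cytosines, 35, 23 and 27 reads in replicates 1, 2 and 3.

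The cytosines next to it were converted. Position 3306 ends a run of 6 adjoining cytosines, from 3301, as the pattern printed above shows. The other cytosines of that run had 4 unconverted reads among 419, or 0.955%, and the preceding run, from 3294 to 3299, had 0.300%. The neighbour at 3305, carried by nearly the same reads, was unconverted in 1 of 92, and the next cytosine, at 3311, in 2 of 111. Over the 31 cytosines within 50 nt the share was 1.29%, and the highest among them was 5.26% at position 3350, from 38 reads. Coverage rose across the site, from 48 reads at 3294 to 145 at 3320 over the 3 libraries. In replicates 1, 2 and 3 it went from 36, 25 and 31 reads at 3305 to 36, 25 and 33 at the site and 40, 32 and 39 at 3311.

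Other runs of 6 cytosines in Lin28a showed no raised last member. The run from 276 to 281 ended in 6 unconverted of 369 reads (1.63%), the run from 3294 to 3299 in 0 of 64 reads, and the thinly read run from 2341 to 2346 in 0 of 9. In all genes, 700 testable cytosines were the last of a run of at least 6 listed ones, and 2 of them (0.286%) were candidates, 3306 among them. Of all testable cytosines 0.0473% were candidates, and of run members that were not last 0.0285%. The class of last members has the form of site 3306 and counts it. Its share is therefore not independent of that site, and the shares were not compared by a test. No cytosine was listed at the 4 positions that follow 3306, as at 31.5% of all testable cytosines.

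The weaker sites of Lin28a lay further upstream. Position 1176 was unconverted in 5 of 127, 7 of 84 and 8 of 89 reads, shares of 3.94%, 8.33% and 8.99% and 6.67% of all 300 reads (exact 95% interval 4.12% to 10.1%, adjusted p = 6.71e-05, exact binomial test). Replicate 1 was the lowest of the 3, and each was above its background. The neighbours at 1165 and 1178, at nearly the same coverage, had 3.37% and 0.660%. Position 156 had 4 of 89, 7 of 70 and 3 of 91 reads, 5.6% of 250 (adjusted p = 0.0157, exact binomial test). Its value was carried by replicate 2, at 10%, with the others at 4.49% and 3.30%, and the call was lost without replicate 2 and in the beta-binomial test.

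Of the 12 other Lin28a cytosines at 5% or more, none passed the test. The highest was position 48, within the letters printed above, with 3 of 16, 0 of 13 and 2 of 13 reads, 11.9% of 42 (exact 95% interval 3.98% to 25.6%). Replicate 2 had no unconverted read there, and the cytosines beside it at 49 and 50 had none in any library. The deepest were position 1600, with 10 unconverted of 162 reads, position 1368 with 7 of 140 and position 609 with 9 of 125. Position 628 stood at 8.16%, 1504 at 6.90%, 558 and 1635 at 6.67%, 1990 at 6.25%, 1305 at 5.71%, 849 at 5.56% and 1551 at 5%, each from 35 to 80 reads. Another 29 cytosines of Lin28a and 1 of L1td1 reached 5% below the coverage minimum.

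In L1td1 the best supported site was position 285. It was unconverted in 65 of 772, 96 of 1066 and 75 of 826 reads, shares of 8.42%, 9.01% and 9.08% in replicates 1, 2 and 3. The mean of 8.84% ± 0.362 (SD, n = 3) had a small spread, and the 2664 reads together gave 8.86% (exact 95% interval 7.81% to 10.0%, adjusted p = 4.15e-98, exact binomial test). Its share lay under the candidate minimum of 10%. The neighbour at 282 had 0.845% of 2723 reads and the one at 278 had 3.31% of 2783. Over the 22 cytosines within 50 nt the share was 1.89%.

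Position 2662 of L1td1 had 8 of 103, 6 of 98 and 11 of 101 unconverted reads, shares of 7.77%, 6.12% and 10.9% and 8.28% of 302 (exact 95% interval 5.43% to 12.0%, adjusted p = 7.02e-08, exact binomial test). Its neighbour at 2659 had 1.65% of 364 reads. Position 1476 had 6 of 83, 3 of 86 and 5 of 84 reads, 5.53% of 253 (adjusted p = 0.0357, exact binomial test). That last call was lost without any one of the 3 replicates, in the beta-binomial test and at a coverage minimum of 5 reads. The 4 uncalled cytosines of L1td1 at 5% or more, at 1730, 2674, 2675 and 2677, rested on 75, 40, 38 and 39 reads.

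**Figure D3:**
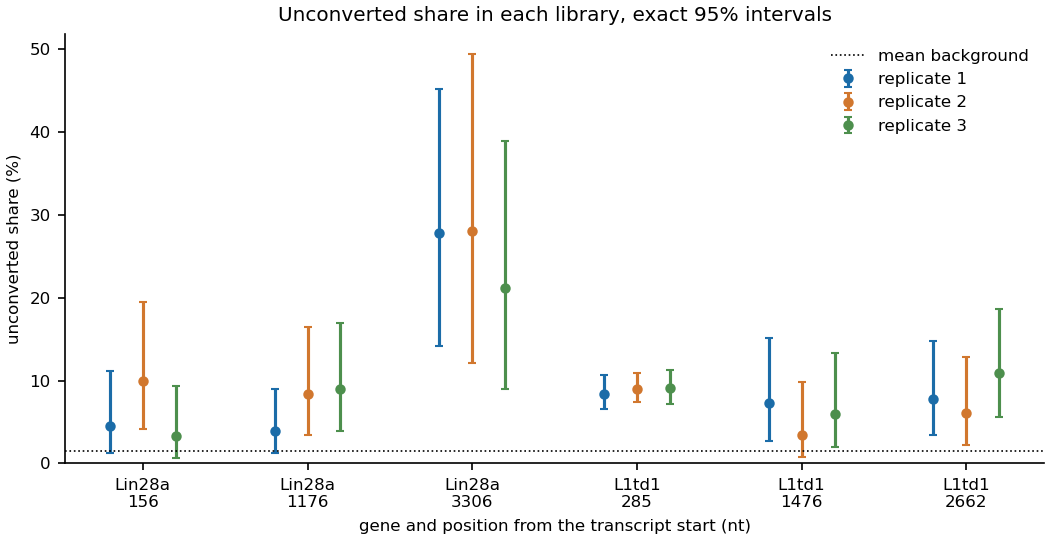
Unconverted share (%) of the 6 called sites in replicates 1, 2 and 3, with exact 95% binomial intervals for counting error; the dotted line is the mean background. Position 3306 of Lin28a is highest, at 21.2% to 28.0%, with wide intervals, and position 285 of L1td1 has the narrowest, at 8.42% to 9.08%.

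All 3 called sites of L1td1 lay at a downstream edge of coverage. From 285 to the next cytosine, at 289, coverage went from 772, 1066 and 826 reads to 114, 117 and 80 in replicates 1, 2 and 3. This is 0.117 times the coverage of the site. From 2662 to 2666 it went from 103, 98 and 101 reads to 25, 15 and 21, and from 1476 to 1479 from 83, 86 and 84 to 30, 27 and 25, or 0.202 and 0.324 times the site. Cytosines upstream of 285 had a median of 2508 reads within 50 nt, and those downstream 160. Only 4 of the 489 testable L1td1 cytosines with another within 10 nt downstream were followed by a drop to below 0.5 times their coverage. The remaining one, position 1672, had 1.83%. Past 2662 coverage recovered, to a median of 738 reads at 50 to 100 nt downstream.

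In Lin28a none of the 3 called sites had such a drop. There the coverage of the next cytosine was 1.01, 1.01 and 1.18 times that of 156, 1176 and 3306. Of the 482 Lin28a cytosines with a downstream neighbour within 10 nt, 5 were followed by a drop, with shares from 0.952% to 6.67%. One of these, position 1022, was unconverted in 26 of 531 reads, or 4.90% (adjusted p = 0.000576, exact binomial test), just under the 5% line. Over all genes, 0.420% of the testable cytosines with a downstream neighbour within 10 nt preceded such a drop, and 9.25% of those called at 5% or more did. The part of these edges in the shares was not tested.

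**Figure D4:**
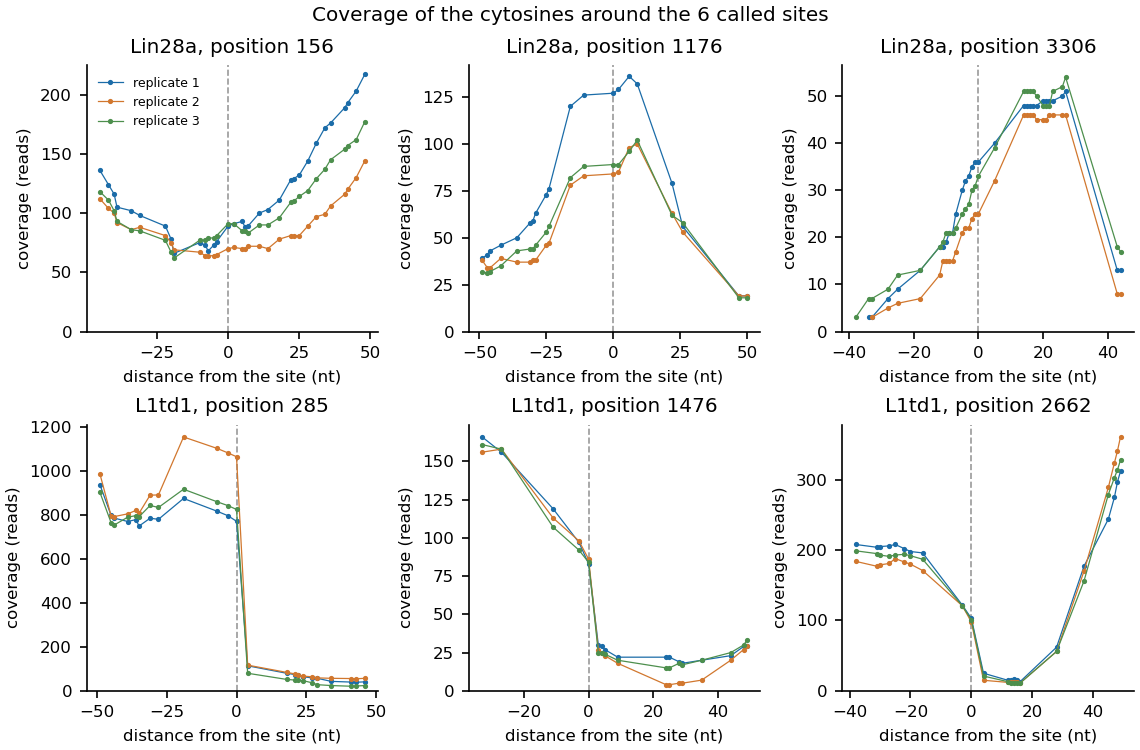
Coverage (reads) of the listed cytosines within 50 nt of each of the 6 called sites, by distance from the site (nt), in replicates 1, 2 and 3. In the lower row coverage of L1td1 breaks off within 4 nt downstream of each site, whereas in the upper row coverage of Lin28a runs on past 156, 1176 and 3306.

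The other L1td1 cytosines with an adjusted p below 0.05 were weak and differed in depth. Positions 99, 203, 236 and 278 had 2.56% to 3.39% at 2682 to 3314 reads. Positions 819, 1574 and 2277 had 3.53%, 4.27% and 3.35%, at 1390, 422 and 956 reads. In Lin28a the only such cytosine not yet named was position 111, at 4.64% of 366 reads. Across testable cytosines the shares of library pairs had a Pearson's r of 0.279 to 0.310 in Lin28a (528) and 0.175 to 0.295 in L1td1 (556), over points that share reads and depth.

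Genes around Lin28a in the let-7 pathway were read from a list of 22, of which 19 were testable. They held 8 candidates in 5 genes, where 6.66% of all testable genes had one. Sites called at 5% or more numbered 48 (0.627% of 7653 cytosines, against 0.203% overall). They lay in 11 genes, and most were in Trim71 (17), Khsrp (11) and Ago2 (9). The percentages of this and the following lists were not adjusted for depth. The median gene share was 1.47%, against 1.46% over all testable genes. Trim71 held 3 candidates, at positions 905, 908 and 1387, the highest of them 908 with 11 of 73 reads (15.1%), carried by replicate 2 at 31.6% with 10.7% and 7.69% in replicates 1 and 3. Without replicate 2 it had 9.26% and was no candidate. Position 905 was no candidate without any one of the replicates, and 1387 none without replicate 1 or 3. Ago2, the slicing Argonaute, held 2, at 129 and 133, with 25 and 27 of 215 reads, and 133 was lost without replicate 2. Tut4, which uridylates let-7 precursors bound by Lin28a, had 11.6% at position 461 from 69 reads, a call lost without any one of the replicates. Ago1, another Argonaute, had 10.6% at 5969 from 85 reads, and 7.14% with the call lost without replicate 2. Khsrp, which promotes let-7 processing, had 7.14%, 4% and 24% at 162 in replicates 1, 2 and 3, 11.5% of 78 reads. Without replicate 3 this was 5.66% and no candidate. The most deeply read members, Ran (743 reads per cytosine), which drives nuclear export of precursors, Ddx5 (309), a helicase of the Drosha complex, and Hnrnpa1 (87.8) had no candidate.

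A list of let-7 targets held 22 genes besides Lin28a, of which 18 were testable. One of them, Imp3, is the gene of a U3 snoRNP protein, and its symbol is also an alias of the let-7 target Igf2bp3. The list held 6 candidates in 4 of the 18 testable genes, where 6.66% of all testable genes had one. It had 40 sites called at 5% or more (0.558% of 7167 cytosines, against 0.203% overall) and a median gene share of 1.47%. Without Imp3 the 40 sites were 0.575% of 6951 cytosines. The highest was position 122 of Nr6a1, an orphan nuclear receptor that represses Pou5f1, with 36.8%, 46.2% and 23.1% in replicates 1, 2 and 3, from 16 of 45 reads. Igf2bp1, an mRNA-binding protein, had 21.9%, 5.56% and 11.1% at position 2172, 14.7% of 68 reads. Hmga2, a chromatin protein, had 18.6%, 6.67% and 5.45% at 957, 9.79% of 143 reads. Replicate 1 carried both: without it they had 8.33% and 6% and were no candidates, whereas Nr6a1 kept its call without each replicate in turn. Trim71 and Lin28b are in both let-7 lists. The 3 candidates and 17 called sites of Trim71 and the 1 called site of Lin28b therefore count here too. Cdc34 and Ccnd1, with Imp3 and Trim71 the most deeply read of the list, had no candidate. At 5% or more, 7 sites of Cdc34 and 1 of Ccnd1 were called.

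Other RNA-binding genes of stem cells numbered 33, of which 28 were testable. They held 5 candidates in 4 genes, where 6.66% of all testable genes had one. They had 24 sites called at 5% or more (0.441% of 5448 cytosines, against 0.203% overall) and a median gene share of 1.46%. Hnrnpl, a splicing regulator, had 14.8% at position 1008 and 14.7% at 1078. Dnd1, a germ cell RNA-binding protein, had 14.6% at 501, G3bp1, which nucleates stress granules, 12.0% at 1374, and Rbpms 11.3% at 924. Of these, Hnrnpl 1078 alone kept its call without each replicate in turn. Dppa5a, a KH-domain protein of stem cells and the most deeply read at 2037 reads per cytosine, had no site at 5% or more, and Ybx1, which like Lin28a has a cold shock domain, had 3 such sites and no candidate. Genes derived from mobile elements, as L1td1 is, numbered 15, of which 5 were testable. Of their 970 testable cytosines 2 were called at 5% or more (0.206%, against 0.203% overall), 1 each in Zcchc3 and Zbed4, and neither was a candidate.

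Among 11787 genes with a single listed transcript, those most like Lin28a in coverage per cytosine and number of listed cytosines, averaged over the 3 libraries, were Maged1, Bub1b and Arf3, with 52.1, 51.9 and 50.2 reads per cytosine. Of their 554, 628 and 445 testable cytosines, 0, 1 and 2 were called at 5% or more, against 0.203% of all testable cytosines. The only candidate lay in Arf3. Those most like L1td1 were Odc1, Hnrnpdl and Hdgf, with 266, 252 and 269 reads per cytosine. Of their 539, 487 and 483 testable cytosines, 8, 2 and 3 were called, with 1 candidate each in Odc1 and Hdgf. Their gene shares ran from 1.36% ± 0.0701 in Odc1 to 1.69% ± 0.0934 in Hdgf (SD, n = 3).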

How the data were processed

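Per the submitters' processing notes, the authors used BSMAP and genome build mm9; no source used here gives versions, counting or annotation. For every listed cytosine of a RefSeq mRNA the deposited tables hold coverage, a read count that is not normalized, and the share of unconverted reads, a fraction. The lowest count listed is 3. Their product was whole (within 1e-06) at 100% of cytosines and was taken as unconverted reads. Of 15021 transcript accessions 14928 matched a symbol, without version, through a GRCm38.p6 table. Coordinates of that build entered no test and only place the letters printed above.

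Tests ran over all genes in Python 3.11.15 with scipy 1.17.1 and were tested on simulated data with 200 raised cytosines. The simulated counts were binomial with a constant background in each library, as the test assumes. They therefore cannot show how the test behaves where counts spread more widely than that. Coverage minimums of 5 and 20 reads, level minimums of 5% and 20%, the highest of the 3 p-values, each gene's own background, a beta-binomial test and omission of each replicate were alternatives. Members, lists and rules were chosen with earlier results of these data known. Named were both genes, their testable sites at 5% or more, and per list the genes with a candidate and up to 4 with the deepest coverage. Likeness was the Euclidean distance in log2 coverage per cytosine and log2 number of cytosines.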

Additional observations from a re-analysis of the deposited data

How the results depend on the processing

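The single candidate of Lin28a, position 3306, was called under every alternative run for it, and L1td1 had 0 candidates except at a level minimum of 5%, which gave 3 in each gene. With the highest of the 3 p-values, sites called at 5% or more fell to 1 in Lin28a (3306) and 1 in L1td1 (285). Leaving out each replicate in turn gave 1 to 1 candidates in Lin28a and 0 to 0 in L1td1, and 3 to 3 and 2 to 3 sites called at 5% or more. The called positions changed: without replicate 2, position 156 of Lin28a was lost and 1022 gained, and without replicate 3, position 1476 of L1td1 was lost and 1574 gained. The other settings kept 3306 and 1176 of Lin28a and 285 and 2662 of L1td1. Differences in gene share changed sign easily. One setting left out every cytosine at a pooled share of 5% or more, called or not, in the other genes as well. There L1td1 minus other genes was 0.0681 percentage points and Lin28a minus L1td1 -0.000585. Over the omitted replicates, L1td1 minus other genes ran from -0.0128 to 0.00155 (without replicate 1), Lin28a minus other genes from -0.00404 (without replicate 3) to 0.0953, and Lin28a minus L1td1 from 0.00663 to 0.0937. Of the 19 candidates in the listed and marker genes, 4 were kept without each replicate in turn and 15 were lost without at least 1; this and the target list without Imp3, which kept 40 called sites, were chosen after seeing the data. No pairing of samples between groups was possible because the samples form 1 group. The differences in gene share were paired within each library. Depth limits Lin28a most: at 94 reads, as at position 3306, a count of 0 would allow a share of up to 3.19%.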

Other observations

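Sites also stood in genes of the cell type markers. Col1a1, the collagen gene read as a fibroblast marker, had a candidate at position 1165 with 22.1%, 21.2% and 18.8% in replicates 1, 2 and 3, from 39 of 186 reads (adjusted p = 5.05e-27, exact binomial test). Of the stem cell markers, Tdgf1, a co-receptor of Nodal, had 16.7%, 9.52% and 16.0% at position 554, from 82 reads, and the transcription factor gene Tfcp2l1 had 15.0%, 5.56% and 21.1% at 626, from 57 reads. The Col1a1 call was kept without each replicate in turn, the Tdgf1 call was lost without replicate 1 and the Tfcp2l1 call without replicate 1 or 3. No other gene of the 3 marker lists held a candidate.

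Drops of coverage were one-sided around sites called in all genes. Of 2996 sites called at 5% or more with a listed cytosine within 10 nt downstream, 277 were followed by a drop to below 0.5 times their coverage. Of 2903 with a listed cytosine within 10 nt upstream, 11 had such a low value on that side (0.379%), against 0.259% of all testable cytosines. Over all testable cytosines, those just before a downstream drop had a pooled unconverted share of 2.72%, and those with a neighbour and no drop 1.45%. In L1td1 a low value on the upstream side was found for 6 of 491 testable cytosines, none of them called at 5% or more. In L1td1 the shares before a drop and elsewhere were 7.65% and 1.41%, and in Lin28a 3.76% and 1.51%. The L1td1 group before a drop was 4 cytosines, 3 of them its called sites. Their unconverted reads were 236 at 285, 14 at 1476, 9 at 1672 and 25 at 2662, so its share mostly restates position 285. The Lin28a group was 5 cytosines, and most of its unconverted reads, 26, came from position 1022. Cytosines were grouped by drops after the values of the members had been seen, and what sets their shares was not tested.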
